A study of Mus musculus with 4 samples.

Results

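The myogenic regulatory factors and the PAX, sine oculis homeobox and EYA factors that act around them were followed in the male mouse urogenital sinus (UGS), the embryonic tissue from which the prostate and pelvic urethra form. The genes were taken by symbol from the deposited table: Myod1, Myog, Myf5, Myf6, Pax7, Pax3, Six2, Eya1 and Eya4, which are 9 of its 25819 entries. Of these, 7 had at least 1 FPKM in at least 1 library, and Pax7 and Pax3 stayed below 1 FPKM in all 4 libraries. FPKM divide a gene's reads by the length of its transcript and the depth of the library, so levels of different genes can be set side by side.

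RNA-Seq was made from the whole UGS of wild type embryos and of Tbx18GFP/GFP littermates at E16.5 and E18.5, before and after prostate budding begins. Tbx18GFP/GFP embryos are homozygous for a null knock-in allele of Tbx18, a T-box transcription factor gene of the UGS mesenchyme, and came from matings of Tbx18GFP/+ mice. RNA from 3 male embryos was pooled for each library, and each genotype and stage had 1 library. There was therefore no replicate error and no test between genotypes or stages, and all differences below describe these 4 libraries. Intervals in parentheses are 95% counting intervals from estimated read numbers. They cover counting error only and not the spread between embryos or libraries.

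MYOD1 and MYF5 commit cells to the skeletal muscle lineage, while MYOG and MYF6 act later, in differentiation and fibre maturation. They are basic helix-loop-helix (bHLH) proteins that bind E-boxes together with E proteins. PAX3 and PAX7 mark muscle progenitors, SIX2 and its relatives are sine oculis homeobox proteins, a family that binds the MEF3 element of muscle genes, and EYA proteins are co-activators of that family that do not bind DNA by themselves. In the pelvis the striated muscle around the urethra lies against the smooth muscle of the UGS, and SIX2 and EYA1 are also known from the kidney, where they act in nephron progenitors.

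Promoter sequence is shown for the members whose windows illustrate the presence and the absence of these elements. Sequences and start sites are from RefSeq on GRCm38.p6, a table that held windows for 5 of the 9 members (Myog, Myf5, Pax7, Six2 and Eya4). Each window had 250 bases before and 50 bases after the start site, and the bases before it are printed 5′ to 3′ on the strand of the gene. They lie at chr1:134289754-134290003 on the plus strand for Myog, at chr10:107486135-107486384 on the minus strand for Myf5 and at chr17:85688255-85688504 on the minus strand for Six2. Capitals mark matches to the E-box CANNTG or to the MEF3 element TCAGGTTTC.
Myog: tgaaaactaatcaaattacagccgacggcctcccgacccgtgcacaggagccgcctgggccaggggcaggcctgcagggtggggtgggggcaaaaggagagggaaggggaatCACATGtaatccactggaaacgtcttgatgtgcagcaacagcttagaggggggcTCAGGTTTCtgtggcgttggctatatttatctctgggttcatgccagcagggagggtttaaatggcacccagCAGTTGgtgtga
Myf5: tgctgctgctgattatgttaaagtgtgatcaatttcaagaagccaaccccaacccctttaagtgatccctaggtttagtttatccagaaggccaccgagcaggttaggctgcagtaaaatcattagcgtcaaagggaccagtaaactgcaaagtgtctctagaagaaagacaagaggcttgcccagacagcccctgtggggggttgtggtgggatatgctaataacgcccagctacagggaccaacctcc
Six2: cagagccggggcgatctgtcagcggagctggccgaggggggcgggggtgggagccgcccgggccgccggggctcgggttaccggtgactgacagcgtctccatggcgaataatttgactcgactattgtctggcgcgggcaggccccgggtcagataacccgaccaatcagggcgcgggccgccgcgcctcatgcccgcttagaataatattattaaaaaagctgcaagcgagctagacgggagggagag
The Myog window held a MEF3 match at position -84 from the start site, and E-box matches at positions -138 (CACATG) and -12 (CAGTTG). Of all 32851 RefSeq promoter windows of this length, 0.429% held the MEF3 letters and 72.3% held CANNTG on either strand. No match to either motif was found in the windows of Myf5, Pax7 and Six2, and the Eya4 windows held 1 E-box match, CACTTG. The E-box form CAGCTG, a subset of CANNTG that 16.3% of windows held, was in none of the members' windows. A match describes letters only and not binding.

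The study's RT-qPCR primers for Myod1, Myog and Pax7 show which exons its amplicons cover, and each pair matched 1 gene. The Myod1 amplicon (109 bases, chr7:46376691-46376799, plus strand) and the Myog amplicon (106 bases, chr1:134290068-134290173, plus strand) lie in coding sequence of exon 1 of 3. The Pax7 amplicon (143 bases, chr4:139830191-139830333, minus strand) lies in coding sequence of exon 2 of 9. These positions are on GRCm38, and the RT-qPCR itself was not analysed here.
Myod1 forward: ccactccgggacatagacttg
Myod1 reverse: aaaagcgcaggtctggtgag
Myog forward: gagacatccccctatttctacca
Myog reverse: gctcagtccgctcatagcc
Pax7 forward: tggggtcttcatcaacggtc
Pax7 reverse: atcggcacagaatcttggaga

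Depth, estimated from genes with a single read, was about 64000000 mapped reads in E16.5 wild type, 55700000 in E16.5 Tbx18GFP/GFP, 29000000 in E18.5 wild type and 52400000 in E18.5 Tbx18GFP/GFP. The E18.5 wild type library stood apart. Between it and each of the others 2657 to 2965 genes were 2-fold or more apart, against 244 to 371 genes for pairs of the others. The median gene had a log2 ratio of mutant over wild type of 0.01 at E16.5 but of 0.29 at E18.5, and the members' E18.5 differences are therefore given on a second scale, after subtracting it. At E18.5 the median ratio also moved with the GC content of the transcript, from 0.01 below 45% GC to 0.71 at 55% GC and above. Tbx18 itself was at 3.47 and 2.50 FPKM in wild type and mutant at E16.5, and at 3.16 and 2.93 FPKM at E18.5, and FPKM do not separate a transcript of the targeted allele from an intact one. All 8 UGS marker genes checked (Foxa1, Trp63, Krt5, Upk2, Shh, Hoxd13, Vim and Acta2) were above 5 FPKM in every library, and the skeletal muscle markers Chrng, Cdh15, Myh3 and Mylpf were detected in every library. Of the 8 UGS markers 7 were lower in the E16.5 mutant, 0 by 2-fold, with a median log2 ratio of -0.43. At E18.5 their median was -0.09, or -0.38 relative to the median gene. Of 5 heart markers Nkx2-5 was at 0.0146 FPKM or less, while Tnni3 was at 1.90 to 2.77 FPKM, Myh6 at 0.853 to 2.11 and Myl7 at 0.183 to 2.18.

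The myogenic factors had their highest levels in E16.5 wild type UGS, and all 4 were lower by at least 2-fold in the E16.5 mutant. Myod1 (chromosome 7, 53631844 to 53634462), the lineage determination factor, was at 11.4 FPKM in E16.5 wild type, 4.50 in E16.5 mutant, 3.34 in E18.5 wild type and 3.63 in E18.5 mutant. The E16.5 wild type library was thus far above the other 3, which lay close together. The E16.5 mutant level was 2.53-fold lower than wild type (2.26 to 2.84), a log2 ratio of -1.34, and this placed Myod1 at rank 67 from the lowest among 14761 genes. About 1201 and 413 reads stood behind these levels. Gene positions given in this way come from the deposited table (first base counted as 1), whose genome build is not given in the sources used here and is not GRCm38.

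Myog (chromosome 1, 136186581 to 136189125), needed for the differentiation of myoblasts into fibres, was the most abundant of the myogenic factors in every library. It was at 36.4 FPKM in E16.5 wild type, 15.7 in E16.5 mutant, 17.5 in E18.5 wild type and 12.8 in E18.5 mutant. The highest value was again that of E16.5 wild type, and the E18.5 mutant was the lowest. At E16.5 the mutant level was 2.32-fold lower (2.17 to 2.49), a log2 ratio of -1.22 and rank 104 from the lowest.

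Myf5 (chromosome 10, 106919964 to 106923190) and Myf6 (chromosome 10, 106929916 to 106931785) are neighbours in the genome and were the least abundant of the myogenic factors. Myf5, a determination factor like Myod1, was at 2.67 FPKM in E16.5 wild type, 1.27 in E16.5 mutant, 1.62 in E18.5 wild type and 1.22 in E18.5 mutant. Myf6, a factor of maturing fibres, was at 3.49, 1.44, 1.63 and 1.16 FPKM in the same order of libraries. At E16.5 Myf5 was 2.11-fold lower in the mutant (1.71 to 2.60) and Myf6 2.42-fold lower (1.88 to 3.15). Both had the E16.5 wild type library highest and the E18.5 mutant library lowest.

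Pax7 (chromosome 4, 139293996 to 139388883), the factor of fetal muscle progenitors and satellite cells, was at 0.916 FPKM in E16.5 wild type, 0.384 in E16.5 mutant, 0.407 in E18.5 wild type and 0.277 in E18.5 mutant. Because its transcript is long, about 331, 121, 67 and 82 reads stood behind these values. The E16.5 mutant was 2.38-fold lower than wild type (1.93 to 2.96), but with less than 1 FPKM in every library Pax7 is not in the counts of genes. Pax3 (chromosome 1, 78097842 to 78193711), a factor of early migrating muscle precursors and of the neural crest, was at 0.103, 0.0246, 0.0435 and 0.0543 FPKM in the same order. Only about 24, 5, 5 and 10 reads stood behind these values, so Pax3 was close to the limit of detection at this depth.

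**Figure D1:**
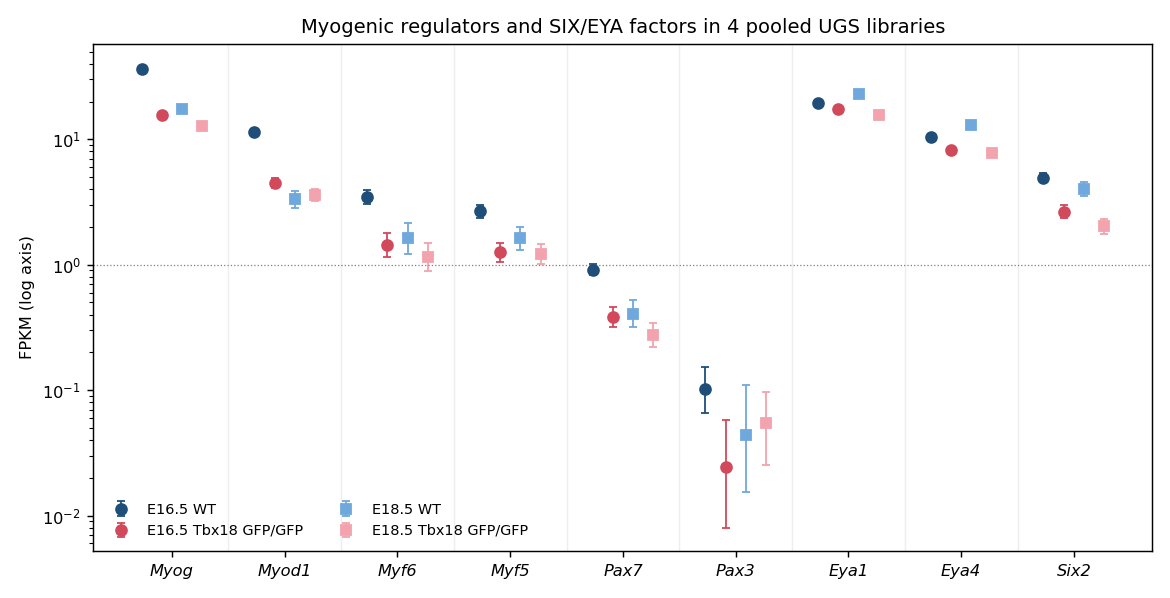
Levels of the 9 members in FPKM (log axis) in the 4 pooled UGS libraries, with circles for E16.5, squares for E18.5, blue for wild type and red for Tbx18GFP/GFP, bars for 95% counting intervals and a dotted line at 1 FPKM. Myog, Myod1, Myf6, Myf5 and Pax7 have E16.5 wild type far above the other libraries, whereas Eya1 and Eya4 stay between 7.77 and 22.8 FPKM.

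Six2, Eya1 and Eya4 had another pattern over the 4 libraries, with E18.5 wild type at or near the top. Six2 (chromosome 17, 86083608 to 86087594), a homeodomain factor known for holding nephron progenitors undifferentiated, was at 4.94 FPKM in E16.5 wild type, 2.65 in E16.5 mutant, 4.02 in E18.5 wild type and 2.02 in E18.5 mutant. Both wild type levels were above both mutant levels. The mutant was 1.86-fold lower at E16.5 (1.61 to 2.15) and 1.98-fold lower at E18.5 (1.63 to 2.41).

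Eya1 (chromosome 1, 14159039 to 14300280), a co-activator known from kidney, ear and muscle, was at 19.4 FPKM in E16.5 wild type, 17.6 in E16.5 mutant, 22.8 in E18.5 wild type and 15.6 in E18.5 mutant. Eya4 (chromosome 10, 22823974 to 23069709), a relative known for its part in the inner ear, was at 10.4, 8.28, 12.9 and 7.77 FPKM in the same order. For both genes each mutant library lay below both wild type libraries, but the distances were small at E16.5. There Eya1 was 1.10-fold lower in the mutant (1.06 to 1.15), at rank 2417 from the lowest, and Eya4 was 1.25-fold lower (1.19 to 1.32), at rank 1019. At E18.5 Eya1 was 1.46-fold lower (1.39 to 1.54) and Eya4 1.66-fold lower (1.56 to 1.77).

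In E16.5 wild type the order of levels from the highest was Myog, Eya1, Myod1, Eya4, Six2, Myf6, Myf5, Pax7 and Pax3, and no neighbours in this order had overlapping counting intervals. In the other libraries Eya1 was first and Myog second, and Myf5 and Myf6 could not be ordered beyond counting error. In E18.5 wild type the intervals of Six2 (3.50 to 4.58 FPKM) and Myod1 (2.85 to 3.90 FPKM) overlapped as well. The ratio of Eya1 to Myog was 0.532 in E16.5 wild type and 1.12, 1.30 and 1.22 in E16.5 mutant, E18.5 wild type and E18.5 mutant.

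The first comparison asks how expression differs without TBX18 at E16.5. Of the 7 members that reached 1 FPKM in either library, 7 were lower in the mutant and 4 were lower by at least 2-fold, namely Myod1, Myog, Myf5 and Myf6. Of all 14761 genes kept by the same rule, 6753 were lower. By 2-fold or more, 1.17% were lower and 0.481% were higher. At 1.5-fold Six2 joined them, for 5 of 7 members against 2.72% of all genes. The median log2 ratio was -1.07 for the 7 members and 0.01 for all 14761 genes. In bulk tissue, fewer cells of a type and less RNA per cell cannot be told apart. At this stage the ratios did not move with GC content, with medians between 0.01 and 0.02 in 4 classes of GC content.

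At E18.5 the members lower in the mutant were Six2, Eya4, Eya1, Pax7, Myf6, Myog and Myf5, while Myod1 and Pax3 had slightly higher values in the mutant. The log2 ratio was -0.99 for Six2 (-1.27 to -0.71), -0.73 for Eya4 (-0.82 to -0.64) and -0.55 for Eya1 (-0.62 to -0.47). Myog had a log2 ratio of -0.45 (-0.60 to -0.30). The ratios of Myf5 (-0.40, from -0.81 to 0.01) and Myf6 (-0.49, from -1.05 to 0.07) had intervals that held equal levels, as did those of Myod1 (0.12, from -0.16 to 0.40) and Pax3 (0.32, from -1.54 to 2.05). Of the 7 members kept, 6 were lower but 0 by 2-fold. Of all 14733 genes kept, 4500 were lower, and by 2-fold or more 2.89% were lower and 15.1% higher. At 1.5-fold 2 of 7 were lower, Six2 and Eya4, against 7.60% of all genes.

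On the scale of the median gene, 7 of the 7 members were lower in the E18.5 mutant and 2 were lower by at least 2-fold, Six2 (2.42-fold) and Eya4 (2.03-fold). Over all genes 7180 of 14733 were lower on this scale and 799 were at least 2-fold lower. Six2 has a transcript of 61.2% GC and Myod1 one of 58.9%, in the range where the median gene had a ratio of 0.71, whereas Eya4 (41.3%) and Myf5 (41.6%) lie where it was 0.01. After a fitted trend on transcript length and on GC content was removed, the log2 ratio at E18.5 was -1.92 for Six2, -1.14 for Myog, -0.84 for Myf6, -0.74 for Myod1, -0.66 for Eya4, -0.64 for Eya1 and -0.57 for Myf5. All of these were below 0, and the sign of Myod1 thus depended on the scaling. The part of GC content in the deposited E18.5 values was not tested.

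**Figure D2:**
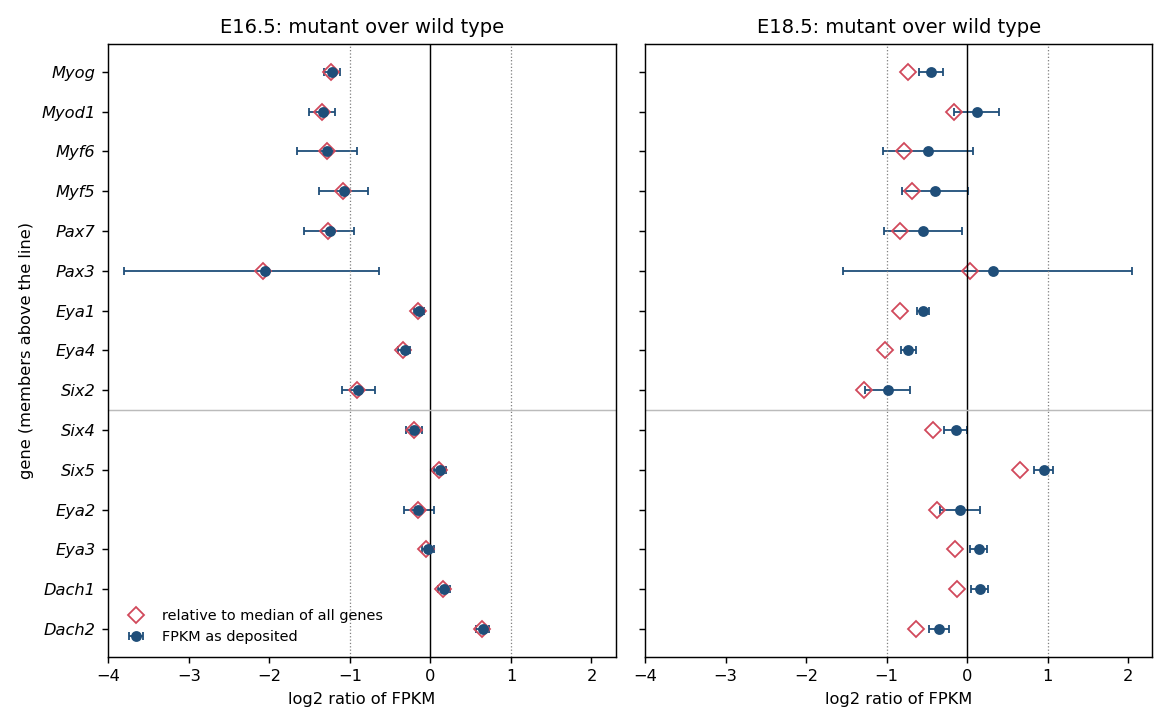
Log2 ratio of mutant over wild type FPKM at E16.5 (left) and E18.5 (right) for the 9 members (above the grey line) and for other sine oculis homeobox, EYA and DACH genes, with filled circles for FPKM as deposited, bars for 95% counting intervals, open diamonds for values relative to the median gene and dotted lines at 2-fold. At E16.5 the 4 myogenic factors lie left of the 2-fold line, while at E18.5 Six2, at -0.99, is the farthest to the left of the members.

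From E16.5 to E18.5 in wild type UGS, Myod1 was 3.42-fold lower (2.89 to 4.05), Myf6 2.14-fold lower (1.56 to 2.94), Myog 2.08-fold lower (1.91 to 2.27) and Myf5 1.65-fold lower (1.30 to 2.11). Pax7, below 1 FPKM, was 2.25-fold lower (1.72 to 2.96). Six2 was 1.23-fold lower, while Eya1 and Eya4 were 1.18-fold and 1.25-fold higher. Thus 3 of 7 members were at least 2-fold lower, where 16.8% of all genes were. The median gene had a log2 ratio of -0.33 in this comparison, and relative to it 1 of 7 members stayed past 2-fold, Myod1 at 2.71-fold lower, as did 1219 of all 14807 genes. The median gene moved with GC content here too, from -0.01 below 45% GC to -0.81 at 55% GC and above. With the fitted length and GC trend taken out, 0 of the 7 were past 2-fold, with log2 ratios of -0.82 for Myod1, -0.33 for Myog and 0.75 for Six2.

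In the mutant the members moved little between the stages. The largest distance of the 7 kept was that of Six2, which was 1.31-fold lower at E18.5 (1.09 to 1.58), followed by Myod1 and Myf6, both 1.24-fold lower. All 7 were lower at E18.5, as were 9517 of all 14713 genes, and relative to the median gene 6 were lower and 1, Myf5, was higher by 0.01 on the log2 scale. By 2-fold 0 of them were lower, against 0.571% of all genes. These stage comparisons share their libraries with the genotype comparisons, so the values are not independent of those above.

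Because the E18.5 wild type library stood apart, the E18.5 mutant was also set against E16.5 wild type, a comparison chosen after the data were seen, in which genotype and stage cannot be told apart. Myod1 was 3.14-fold lower (2.77 to 3.57), Myf6 3.01-fold lower (2.26 to 4.02), Myog 2.84-fold lower (2.64 to 3.07), Six2 2.44-fold lower (2.08 to 2.88) and Myf5 2.18-fold lower (1.76 to 2.71). These were 5 of 7 members, where 1.28% of all genes were at least 2-fold lower. Eya1 and Eya4 were 1.24-fold and 1.33-fold lower.

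Ratios within a library do not depend on the scaling between libraries. Where the genes differ in GC content, they can still carry the GC shift seen in comparisons with the E18.5 wild type library. Myog over Myod1 was 3.19 in E16.5 wild type (2.98 to 3.42), 3.48 in E16.5 mutant (3.10 to 3.90) and 3.53 in E18.5 mutant (3.10 to 4.03), and the 3 intervals overlapped. It was 5.24 in E18.5 wild type (4.39 to 6.26), above the others. The 4 myogenic factors summed to 53.9, 22.9, 24.1 and 18.8 FPKM in E16.5 wild type, E16.5 mutant, E18.5 wild type and E18.5 mutant. Myog made up 67.4%, 68.5%, 72.6% and 68.0% of these sums and Myod1 21.1%, 19.7%, 13.9% and 19.3%. At E16.5 the mutant thus had less of the 4 together, in close to the same proportions as wild type. Pax7 over Myod1 was 0.0804 (0.0710 to 0.0910) and 0.0855 (0.0693 to 0.105) in wild type and mutant at E16.5, and 0.122 (0.0905 to 0.164) and 0.0764 (0.0592 to 0.0978) at E18.5.

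The proportions of the EYA genes were near to each other in the same 3 libraries. Eya1 made up 43.4%, 43.8% and 43.2% of the summed FPKM of Eya1 to Eya4 in E16.5 wild type, E16.5 mutant and E18.5 mutant, and 47.7% in E18.5 wild type. Eya4 made up 23.2%, 20.6% and 21.5%, and 27.1% in E18.5 wild type. Six2 over Eya1 was lower in the mutant at both stages, at 0.255 (0.234 to 0.278) in wild type against 0.151 (0.133 to 0.170) in mutant at E16.5 and 0.176 (0.153 to 0.202) against 0.130 (0.112 to 0.150) at E18.5. Their transcripts differ in GC content, at 61.2% for Six2 and 46.2% for Eya1. With the length and GC trend taken out, wild type log2 ratios of E18.5 over E16.5 were 0.75 for Six2 and 0.37 for Eya1. The lower wild type ratio at E18.5 than at E16.5 thus depended on the processing.

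**Figure D3:**
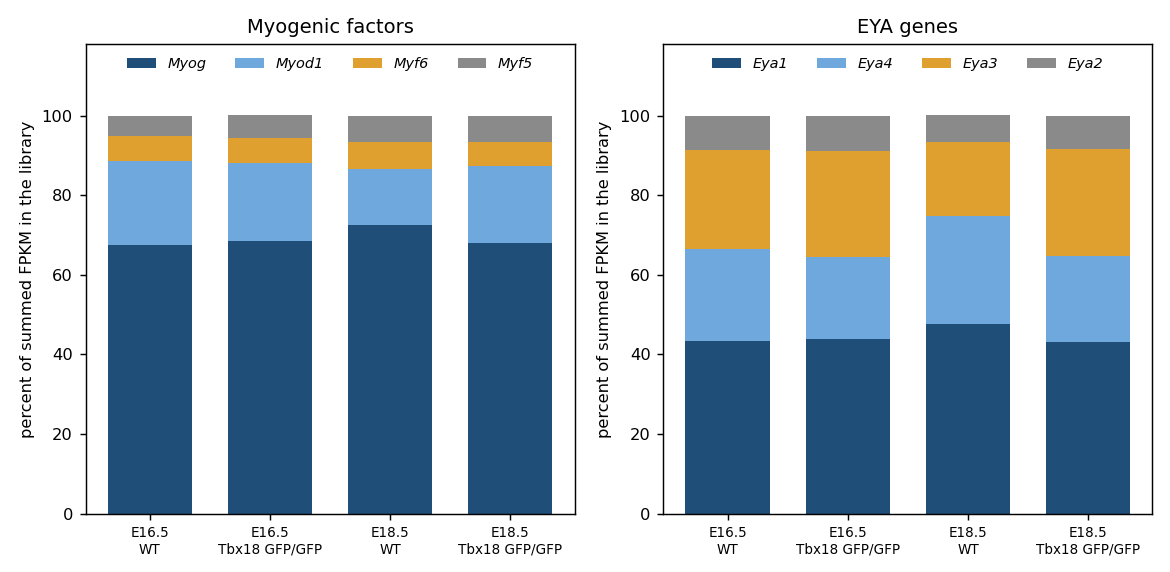
Share of each gene in the summed FPKM of the 4 myogenic factors (left) and of Eya1 to Eya4 (right), in percent, as stacked bars for the 4 libraries. Myog makes up 67.4% to 72.6% of the myogenic factors and Eya1 43.2% to 47.7% of the EYA genes, with E18.5 wild type the highest in both.

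Other sine oculis homeobox, EYA and DACH genes stood closer to equal levels at E16.5 than the myogenic factors. Six4, a factor of embryonic muscle, was at 4.23, 3.68, 3.36 and 3.04 FPKM in E16.5 wild type, E16.5 mutant, E18.5 wild type and E18.5 mutant. Six5 was at 16.2, 17.5, 9.43 and 18.2 FPKM, with log2 ratios of 0.12 at E16.5 and 0.95 at E18.5. Its transcript has 61.1% GC, in the range where the median gene had a ratio of 0.71 at E18.5.

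Eya3 was at 11.0, 10.7, 8.82 and 9.73 FPKM in the same order, and Eya2 at 3.90, 3.52, 3.22 and 3.02 FPKM. Among the DACH genes, which encode co-factors of these proteins, Dach2 had a log2 ratio of 0.65 at E16.5 (0.57 to 0.73) and -0.35 at E18.5, and Dach1 of 0.17 and 0.16. Six3 and Six6 stayed below 0.1 FPKM. Of the 6 genes kept in this list, 3 were lower and 3 higher in the E16.5 mutant, 0 of them by 2-fold, with a median log2 ratio of 0.04. At E18.5 3 were lower and 3 higher, with a median of 0.02.

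Of the partners and inhibitors of the myogenic factors, the E proteins Tcf3, Tcf12 and Tcf4 were at 51.4, 45.9 and 29.8 FPKM in E16.5 wild type and had log2 ratios of 0.08, -0.11 and -0.13 at E16.5. The inhibitors of DNA binding Id1, Id2, Id3 and Id4, which take up E proteins, had log2 ratios of 0.15, 0.35, 0.41 and 0.30 at E16.5 and of 0.77, 0.24, 1.98 and 0.24 at E18.5. Twist1, a bHLH factor that can hold back MYOD1, had a log2 ratio of -0.81 at E16.5 and 0.15 at E18.5. Of the 14 genes of this list, 5 were lower and 9 higher in the E16.5 mutant. The single one past 2-fold at E16.5 was Msc (musculin), a bHLH repressor of some branchial muscle precursors, at 6.77 FPKM in wild type and 2.64 in mutant. At E18.5 3 genes were at least 2-fold higher, Id3, Mdfi and Msc, with log2 ratios of 1.98, 1.31 and 1.10, where 15.1% of all genes were. Relative to the median gene these were 1.69, 1.03 and 0.81, so that 2 stayed past 2-fold. The transcripts of Id3, Mdfi and Msc have 55.6%, 63.5% and 58.2% GC, in the range where the median gene had a ratio of 0.71. The part of GC content in these values was not tested. The list had a median of 0.17 at E16.5 and 0.34 at E18.5, where that of all genes kept by the same rule, at least 1 FPKM in either library, was 0.31. The median of 0.29 used for scaling is over genes with 1 FPKM or more in both.

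Genes of muscle precursors that act before the myogenic factors were lower at E16.5 as well. All 7 listed were lower in the E16.5 mutant, with a median log2 ratio of -0.41. The 8 UGS markers had a median of -0.43 there, with 7 lower, so a shift of this size was not particular to muscle precursors. Of the 7 precursor genes 1 passed 2-fold. That gene was Lbx1, a homeobox factor of migrating limb muscle precursors, at 1.13 and 0.331 FPKM (log2 ratio -1.77, from -2.29 to -1.27). Barx2, another homeobox gene, was at 15.1 and 7.92 FPKM. At E18.5 2 of the 6 kept were lower and 4 higher as deposited, 0 by 2-fold, and their median log2 ratio was 0.12. Once the ratio of the median gene was subtracted, 5 of these 6 precursor genes were lower and 1 higher. Their median was then -0.16, and it was -0.42 after removal of the fitted length and GC trend. The direction of the precursor genes at E18.5 thus depended on the scaling. Of the 5 progenitor and satellite cell genes kept, 3 were lower at E16.5, 0 by 2-fold, with a median of -0.07. At E18.5 2 were lower and 3 higher, with a median of 0.42, and Itga7 was past 2-fold, at 1.18 FPKM in wild type and 3.15 in mutant. Relative to the median gene the median of these progenitor genes was 0.13.

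Genes of differentiating skeletal muscle, which the myogenic factors are known to activate, were lower at E16.5 in every case. Of 20 listed genes 20 were lower in the mutant and 18 by at least 2-fold, where 1.17% of all genes were. The list had a median log2 ratio of -1.19. The largest differences were those of Mstn, the muscle growth inhibitor myostatin (-1.59), Ckm, muscle creatine kinase (-1.56), and Acta1, skeletal alpha-actin (-1.50). Chrng, the fetal acetylcholine receptor subunit, had a log2 ratio of -1.42 and Cdh15, M-cadherin, of -1.26. The myosin genes at the highest levels, Mylpf and Myh3, had log2 ratios of -1.11 and -1.18. The list summed to 744 and 314 FPKM, and the separate sum of the 4 myogenic factors, which are not in the list, was equal to 7.25% of that sum in wild type and 7.27% in mutant.

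At E18.5 9 of the 18 genes kept from this list were lower and 9 higher in the mutant, with a median log2 ratio of -0.09, or -0.38 relative to all genes. Acta1, Rapsn and Ckm were at least 2-fold higher, with log2 ratios of 2.04, 1.83 and 1.65, where 15.1% of all genes were. Vgll2, a co-factor of TEAD proteins named here after its value was seen, was the single gene past 2-fold in the other direction (-1.58). Relative to the median gene 4 of the 18 were lower by 2-fold or more and 3 higher, as were 799 and 1206 of all 14733 genes. In the E18.5 mutant the sum of the 4 myogenic factors was equal to 2.57% of the sum of the list, against 6.94% in E18.5 wild type. Without Acta1 and Ckm, a choice made after their values were seen, the percentages were 11.1, 10.2, 11.1 and 8.72 in E16.5 wild type, E16.5 mutant, E18.5 wild type and E18.5 mutant.

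**Figure D4:**
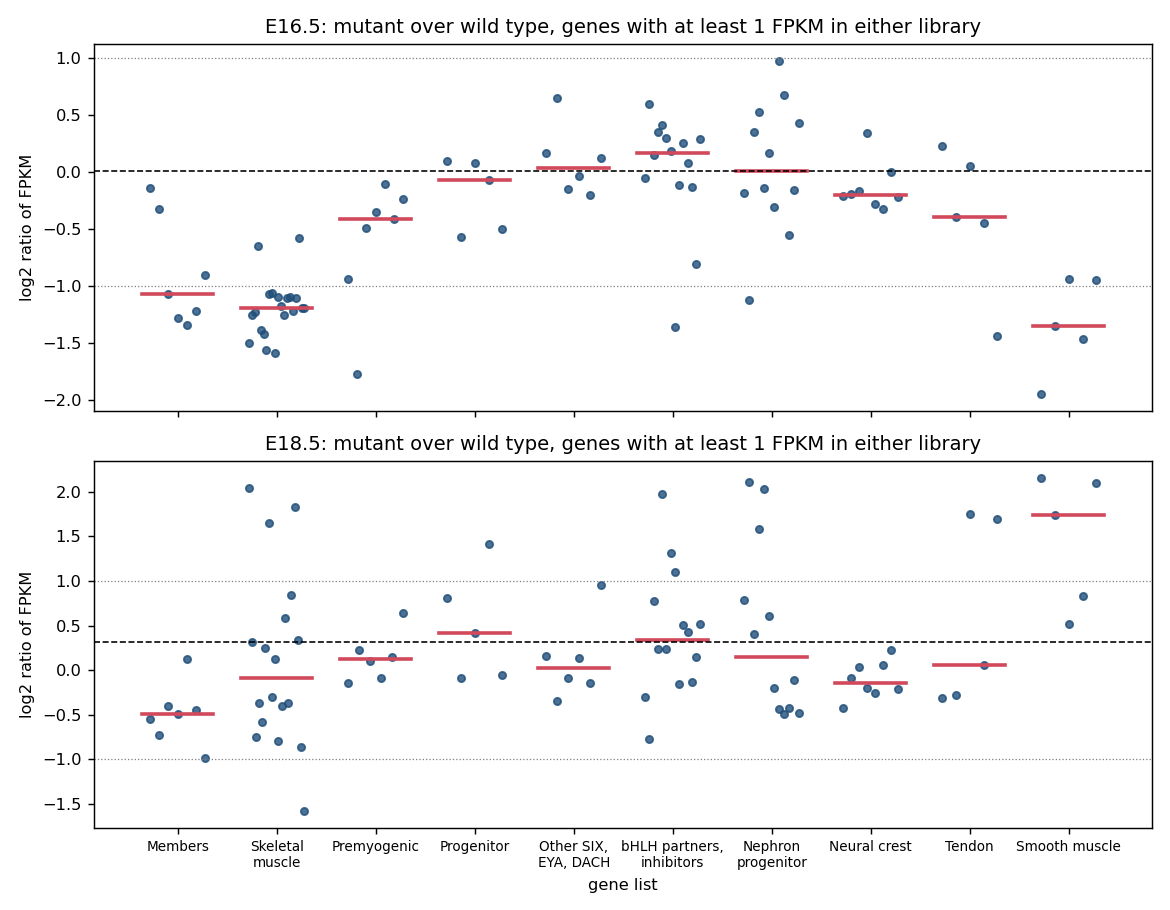
Log2 ratio of mutant over wild type FPKM at E16.5 (top) and E18.5 (bottom) for the genes of 10 lists with at least 1 FPKM in either library, with 1 circle per gene, red bars for list medians, a dashed line for the median of all genes and dotted lines at 2-fold. The members and the skeletal muscle genes have medians of -1.07 and -1.19 at E16.5, and the smooth muscle genes move from -1.35 at E16.5 to 1.74 at E18.5.

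Markers of other cells that can express the members were followed as well. Smooth muscle genes moved in the same direction as the myogenic factors at E16.5, with 5 of 5 lower and 3 by at least 2-fold, where 1.17% of all genes were. They summed to 452 FPKM in wild type and 162 in mutant. At E18.5 they summed to 541 and 1920 FPKM. There 5 of 5 were higher and 3 by at least 2-fold, where 10233 of all 14733 genes were higher and 15.1% by 2-fold or more. Relative to the median gene 5 of 5 smooth muscle genes were still higher, with a median log2 ratio of 1.45. Their part in the members' values was not tested. Of 12 genes known from nephron progenitors, another tissue with SIX2 and EYA1, 6 were lower and 6 higher at each stage. Osr1, at 29.3 to 36.5 FPKM, was a large part of their sums of 101 to 125 FPKM, while Cited1 was at 0.814 to 1.71 FPKM. Whether these levels come from kidney cells was not tested. Osr1 and Pax2, both of early kidney, had log2 ratios of -0.31 and 0.98 at E16.5 and of -0.20 and -0.44 at E18.5. Crym was the single gene of that list past 2-fold lower at E16.5 (-1.12).

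Of the 8 neural crest and Schwann cell genes kept, from a lineage that also uses PAX3, 7 were lower at E16.5, 0 by 2-fold, with a median of -0.20. Tendon genes, from a tissue with EYA1 and SIX2, had a median log2 ratio of -0.39 at E16.5. At E18.5 it was 0.06, or -0.23 relative to the median gene. The tendon sum of 35.0 to 36.9 FPKM in the 4 libraries was carried by Fmod and Mkx, while Scx was at 5.31, 5.49, 1.23 and 4.14 FPKM and Tnmd had a log2 ratio of -1.44 at E16.5 and 1.70 at E18.5. The heart genes summed to 5.14 FPKM or less in every library.

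The genes with the profiles most like those of the members were sought among 10855 genes, detected in all 4 libraries and with at least 5 FPKM in any. Likeness was the distance between log2 FPKM centred on each gene's mean over the 4 libraries. Myf5, Myf6, Six2, Pax7 and Pax3 did not reach 5 FPKM, so they could not be listed as neighbours. Myf6 lay nearer to Myog than any gene listed for Myog. With 4 libraries, such likeness is a description. Nearest to Myod1 were Chrng (distance 0.116), Mybph (0.139), Cdh15 (0.161), Hfe2 (0.178) and Synpo2l (0.354). Myog had Atp2a1 (0.101), the fast muscle calcium pump, Tmem8c (0.107), the older symbol of the fusion protein myomaker, Cacng1, Myom2 and Actn2 as neighbours. Myf6 had Myog itself as its nearest gene, at 0.059, followed by Atp2a1. Myf5 had Tnnc1 (0.066), a troponin of slow and heart muscle, Kbtbd10, the hormone gene Sst, Mybpc1 and Ablim3.

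The neighbours of Six2 were Cyp2f2 (0.215), Smyd1 (0.235), Myh3 (0.253), Zfp750 (0.260) and Myh7 (0.268), of which Smyd1, Myh3 and Myh7 are muscle genes. Those of Eya1 were Mpzl2 (0.031), Sulf2, Etv6, Akap9 and Egfl6, and those of Eya4 were Peg10 (0.052), Chgb, Rab11fip1, Ehf and Hand1. No gene of the skeletal muscle list was among the nearest 5 of Eya1 or Eya4. All these distances include the E18.5 wild type library, whose ratios to other libraries moved with GC content. The transcripts of Eya1 and Eya4 have 46.2% and 41.3% GC, and the part of GC content in the distances was not tested.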

How the data were processed

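The authors made stranded single-end RNA-Seq libraries (KAPA kit) from RNA of 3 embryos each and deposited FPKM from Cufflinks 2.2.1, 1 column per library. CASAVA 1.8.2, Trimmomatic 0.30 and TopHat2 2.1.0 are named in the submitters' processing notes. The genome build is not given in the sources used here.

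Ratios of FPKM were computed with no pseudocount, within a stage and within a genotype, over genes reaching 1 FPKM in one or both libraries, the study's own filter, and genes were counted at 2-fold and 1.5-fold. With 1 library per group no test was run. Depth came from single-exon olfactory receptor genes with the FPKM of 1 read (15 to 27 of them in each library), and read numbers from depth and transcript length (longest coding GENCODE transcript). Counting intervals (95%) were exact Poisson for a level and conditional exact binomial for a ratio, and cover counting error only.

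The members and the 12 gene lists (112 genes, members included, 4 matched by older symbols through RefSeq) were chosen with earlier results of these data known. The genes named are the members, the other sine oculis homeobox, EYA and DACH genes, the bHLH partners and inhibitors, the 3 highest and the 3 most different genes of the other lists at each stage, and the 5 nearest profiles of each member. Not all of them are given, and some genes are not reported here and were left out of the lists. Alternatives were other scalings, a lowess trend (span 0.3) on transcript length and GC content, pseudocounts of 0.1 and 1, and other filters. GC classes and the comparison of the E18.5 mutant with E16.5 wild type were added after the data were seen. The steps were tested on simulated data. The software was Python 3.11.15, scipy 1.17.1 for intervals, statsmodels 0.14.6 for the trend, pandas 2.3.3, matplotlib 3.10.9 and numpy 2.4.6.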

Additional observations from a re-analysis of the deposited data

Results flagged for a closer look

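For some genes the ratio of mutant to wild type FPKM as deposited lay on one side of equal levels at E16.5 and on the other at E18.5. With 1 library per genotype and stage the difference between the stages was not tested, and the E18.5 wild type library, which stood apart from the other 3, enters each E18.5 ratio. Relative to the median gene at E18.5, several of these ratios had the same sign as at E16.5, with -0.17 for Myod1, -0.15 for Eya3, -0.14 for Twist1, -0.17 for Mstn and -0.03 for Chrng, and Cdh15 was at 0.02. With the fitted length and GC trend taken out, Myod1, Eya3, Twist1, Chrng, Cdh15 and Mylpf were below 0 and Mstn was at 0.10. Among the members, Myod1 had log2 ratios of -1.34 at E16.5 and 0.12 at E18.5, and Pax3 had -2.06 and 0.32 with few reads. Among their relatives Eya3 had -0.03 and 0.14 and Dach2 had 0.65 and -0.35. The bHLH genes Msc and Twist1 had -1.36 and -0.81 at E16.5 and 1.10 and 0.15 at E18.5, and of the precursor genes Lbx1, below 1 FPKM in both E18.5 libraries, had -1.77 and 1.61.

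Of the differentiation genes, Acta1 had log2 ratios of -1.50 at E16.5 and 2.04 at E18.5, Ckm had -1.56 and 1.65, and Rapsn had -1.11 and 1.83. Mylpf had -1.11 and 0.59, Cdh15 had -1.26 and 0.31, Chrng had -1.42 and 0.25, and Mstn had -1.59 and 0.12. Among genes of other tissues, Crym had -1.12 and 2.11, Tnmd had -1.44 and 1.70, and Pax2 had 0.98 and -0.44.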

How the results depend on the processing

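No paired analysis was possible because the labels give no replicate numbers and each group had 1 library, and for the same reason no library could be left out within a group. At E16.5 all 54 recomputed log2 ratios of the members kept their sign, as did 49 of 54 at E18.5, 52 of 54 between the stages in wild type and 53 of 54 in the mutant. A pseudocount cannot change the sign of a ratio, so the values with pseudocounts of 0.1 and 1 were bound to keep it. The scalings at E16.5 subtracted 0.01 to 0.11 from ratios already below 0, so they could not change a sign either. The E16.5 count of 4 members at least 2-fold lower was 2 with a pseudocount of 1 and 2 with at least 5 FPKM in either library. Myf5 and Myf6 do not reach 5 FPKM, so that filter left them out of the count without a change in their ratios. At E18.5 the count of 0 became 2 when ratios were centred on the median, library sums were made equal, the length and GC trend was subtracted or the fold was 1.5, 1 with upper quartile scaling, and 5 with E16.5 wild type in place of the E18.5 wild type library. Between the stages in wild type the count of 3 became 1 when centred, with equal sums or with upper quartile scaling, 0 without the trend and 5 with no filter.

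The count of differentiation genes at least 2-fold lower at E16.5, 18, was 9 with a pseudocount of 1 and 11 with at least 5 FPKM, a filter that also left out part of the list. At E18.5 the count of 1 was 4 when centred, 5 with equal sums, 3 with upper quartile scaling, 5 without the trend, 4 at 1.5-fold, and 0 with a pseudocount of 1, with at least 5 FPKM or with 1 FPKM in both libraries. Over all genes with no filter, at least 5 FPKM, 1 FPKM in both libraries and 1.5-fold, the count lower at E16.5 was 1354, 74, 105 and 401 and the count higher 1247, 24, 33 and 212. Lower between the stages in the mutant were 1337, 32, 29 and 247. At E18.5 the count lower was 1449 with no filter, 243 with at least 5 FPKM and 1120 at 1.5-fold, and the count higher 4231 with no filter and 4891 at 1.5-fold. Lower between the stages in wild type were 4732 with no filter and 5320 at 1.5-fold. The reads behind Pax3 and the lack of replicates limit what these values can show.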
